A study of Mus musculus with 71 samples.

Results

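The loss of miR-17 and miR-20a was measured here in mouse embryos that also lack miR-18a. Delta_17_18 embryos (Δ17,18) lack miR-17 together with miR-20a and miR-18a, members of the miR-17~92 cluster, and Delta_18 embryos (Δ18) lack miR-18a alone, so that both groups share the absence of miR-18a and differ by miR-17 and miR-20a. Each genotype had 3 libraries of tail bud, 3 of heart and 3 of the rest of embryo after these were taken (the remainder in the following), which makes 18 of the 71 RNA-seq libraries of the series. They were chosen by their genotype and tissue labels. All embryos were C57BL/6 at embryonic day 9.5 with 20 to 22 somites, dissected into TRIZOL and sequenced as single reads of 50 bases. Embryos lacking miR-17 and miR-20a with miR-18a present (Delta_17, Δ17) and wild-type embryos, 18 further libraries, served to set the effect without miR-18a beside that with it. The labels do not give the zygosity of the alleles or say which libraries of different tissues came from one embryo. The series text calls replicates biological; where they did not come from separate embryos, p-values would measure technical spread.

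MicroRNAs guide Argonaute proteins to messenger RNAs, most often through pairing of the miRNA's seed, the bases near its 5′ end, with a match in the 3′ untranslated region, and thereby lower the stability and translation of the message. The miR-17~92 cluster is transcribed as one primary RNA from Mir17hg and holds miRNAs of several seed families. miR-17 and miR-20a carry the same seed, and miRNAs with that seed are also encoded by paralogous clusters on chromosomes X and 5. miR-18a has a closely related seed but belongs to a family of its own. The cluster is known for its roles in heart and lung development, axial patterning and cell proliferation.

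The mature sequences below show what the compared genotypes lack and which related miRNAs they still encode. They are from RefSeq (GRCm38.p6), read 5′ to 3′, with the seed, bases 2 to 8, in capitals. The deleted miRNAs lie on the plus strand at chr14:115043684-115043706 for miR-17-5p, chr14:115044183-115044205 for miR-20a-5p and chr14:115043867-115043889 for miR-18a-5p.
mmu-miR-17-5p: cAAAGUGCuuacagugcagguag
mmu-miR-20a-5p: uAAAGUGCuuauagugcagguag
mmu-miR-18a-5p: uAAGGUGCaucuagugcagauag
mmu-miR-106a-5p: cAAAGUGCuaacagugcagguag
mmu-miR-20b-5p: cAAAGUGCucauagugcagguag
mmu-miR-106b-5p: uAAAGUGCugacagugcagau
mmu-miR-93-5p: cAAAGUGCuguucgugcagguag
mmu-miR-6383: uAAAGUGCugugucacggaca
mmu-miR-18b-5p: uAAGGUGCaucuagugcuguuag
The last 6, encoded on chromosomes X and 5, are not among the deletions that the labels give for either genotype. miR-106a, miR-20b, miR-106b, miR-93 and miR-6383 have the miR-17 seed, and miR-18b has the seed of miR-18a, so neither seed family is wholly deleted. Their levels were not measured here. The miR-18a seed differs from it by A4G, counted from 1 at the 5′ end of the miRNA.

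Matches to the miR-17 seed were searched as words on the transcript strand of the longest 3′ untranslated region of each gene (GENCODE M21, GRCm38). Any annotated transcript with a coding sequence could give this region. The region can therefore be spliced, as that of Ankrd13c is, and whether that transcript is the one expressed here was not tested. An 8mer match is GCACTTTA and a 7mer-m8 match is GCACTTT. Of 19819 genes with such a region, 3.65% hold an 8mer and 12.5% an 8mer or a 7mer-m8. The matches of genes that were higher in Δ17,18 than in Δ18 in every tissue, or in 1 tissue, are shown with their flanks, the match in capitals. A match describes the sequence and does not show that it is used.
Znfx1, chr2:167036554-167036561 (minus strand): gctagagtaaGCACTTTAcccccagc
Znfx1, chr2:167035832-167035839 (minus strand): tctttactatGCACTTTAacctataa
Plekha3, chr2:76695690-76695697 (plus strand): ggatttctctGCACTTTAtagaatat
Plekha3, chr2:76696679-76696686 (plus strand): agaatgatcaGCACTTTAacaaaaat
Ankrd13c, chr3:158003745-158003752 (plus strand): cacccttcaaGCACTTTAacaagctt
Ankrd13c, chr3:158006713-158006720 (plus strand): ctaagtatcaGCACTTTAaacaaatt
Polr3g, chr13:81675675-81675682 (minus strand): tgcacgtgggGCACTTTAaaagcaaa
Sema4b, chr7:80226357-80226364 (plus strand): ttaataagatGCACTTTActttcttt
Hif1an, chr19:44575453-44575459 (plus strand): gccccattgaGCACTTTggggacgtt
E2f1, chr2:154560212-154560218 (minus strand): ggctctaactGCACTTTtggtgtcct
E2f1, chr2:154559697-154559703 (minus strand): cctccagtctGCACTTTgatttgttt
Clip4, chr17:71856749-71856756 (plus strand): atcagaatgaGCACTTTAaaaaaaaa
Clip4, chr17:71857381-71857387 (plus strand): aacacgcacaGCACTTTtgacacatg
Clip4, chr17:71857399-71857405 (plus strand): gacacatgatGCACTTTttactttct
These are all the 8mer and 7mer-m8 matches of these genes. The matches of Hif1an and E2f1 and the last 2 of Clip4 are 7mer-m8, and the others are 8mers.

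The libraries held 15636947 to 25479249 counts, and biological variation between replicates of a genotype had a coefficient of 8.74% (tail bud), 8.87% (heart) and 6.47% (remainder). The hairpin genes Mir17, Mir18 and Mir20a were listed at 0 in all 18 libraries, so no count checks the genotype labels directly. CPM are counts scaled to library size, as defined under the processing, but sums of cell type markers were scaled without TMM factors. The sums of 10 cardiomyocyte markers were 34960 to 38370 CPM in the hearts and 28.7 to 50.7 in the tail buds. The tissue labels thus fit these markers. Heart library 2 of Δ17,18 stood apart from the other hearts of its group (chi-square per degree of freedom 129.6 and 117.8, against 10.8 between the others). Its Ttn, the giant sarcomere protein, was at 71400 CPM, and the other Δ17,18 and Δ18 hearts were at 5050 to 10050 CPM. Primitive erythroid markers also varied in heart, with 825, 1155 and 6429 summed CPM in Δ17,18 and 9573, 4661 and 2830 in Δ18. The part of both in the heart results was not tested beyond the values without library 2 given below. In bulk tissue, fewer cells of a type and less RNA per cell cannot be told apart.

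Most genes that differed on loss of miR-17 and miR-20a in the absence of miR-18a were higher. With edgeR's quasi-likelihood test at a Benjamini-Hochberg adjusted p under 0.05, 128 of 17009 genes tested rose in Δ17,18 tail bud (0.753%) and 8 fell (0.047%). In heart 77 of 16750 genes rose (0.46%) and 10 fell (0.0597%). In the remainder 217 of 17512 genes rose (1.24%) and 32 fell (0.183%). The changes were small: the median log2 fold change of the genes that rose was 0.35 in tail bud, with 0.37 in heart and 0.29 in the remainder. Calls in both directions came to 136 in tail bud (0.8%), with 87 in heart (0.519%) and 249 in the remainder (1.42%). This number depended on single libraries. The 136 of tail bud became 77 and 80 without Δ17,18 replicate 2 or 3, and 71 and 72 without Δ18 replicate 2 or 3. The 87 calls of heart became 57 without Δ17,18 replicate 3, 40 without Δ18 replicate 1 and 24 without Δ18 replicate 2. They became 59 without Δ17,18 replicate 2, of which 52 were among the 87. The 249 calls of the remainder became 136 without Δ17,18 replicate 3 and 164 without Δ18 replicate 2.

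Genes with a miR-17 seed match were shifted upward in every tissue, and more so with the longer match. Of the 618 tested genes with an 8mer in tail bud, 67 rose (10.8%) and 0 fell, with a median log2 fold change of 0.13, against 0.0 over all tested genes with a 3′ untranslated region. In heart 38 of 620 rose (6.13%, median 0.097), and in the remainder 99 of 634 rose (15.6%, median 0.098), with 0 falling in either. The 7mer-m8 genes without an 8mer rose in 39 of 1463 cases in tail bud (median 0.045), 19 of 1449 in heart (0.04) and 64 of 1493 in the remainder (0.027). Genes with no match of the cluster's 4 seed families rose in 8 of 7312, 7 of 7216 and 20 of 7515 cases across the same tissues, with medians of -0.01, -0.013 and -0.001. The shorter word CACTTTA alone went with medians of -0.001, 0.007 and -0.012.

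**Figure D1:**
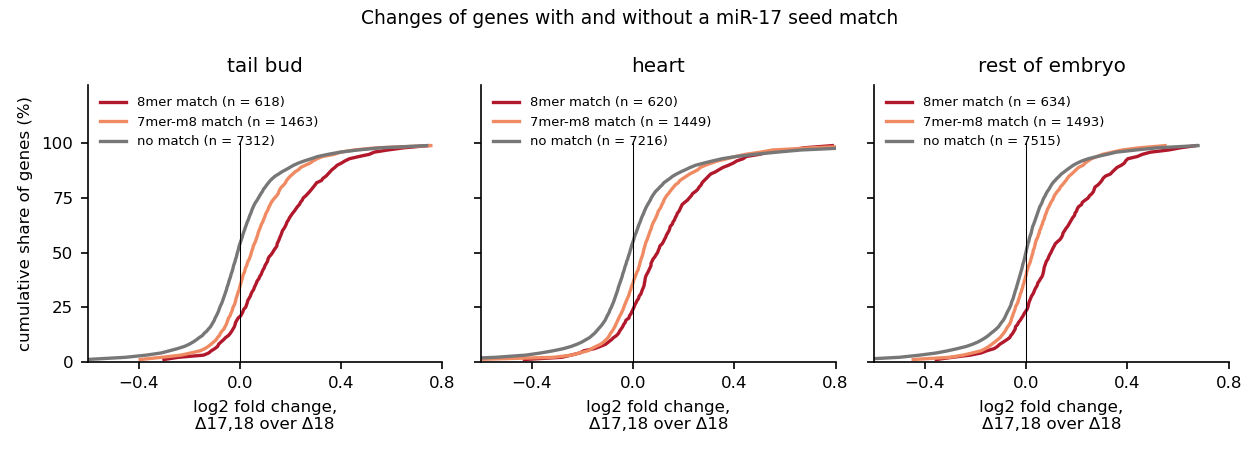
Cumulative share of genes (%, y axis) by log2 fold change of Δ17,18 over Δ18 (x axis) for genes with an 8mer of miR-17, with a 7mer-m8 and no 8mer, and with no match of the 4 families, 1 panel per tissue. The 8mer curve lies to the right of the no-match curve over most of the range in all 3 panels (the curves meet near the top in heart), with 8mer medians of 0.13, 0.097 and 0.098.

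The shift was there without matches of the other families and in each library. Genes with an 8mer of miR-17 and no 8mer or 7mer-m8 of miR-18, miR-19 or miR-92 had medians of 0.12 in tail bud (37 of 332 rose), 0.085 in heart (19 of 334) and 0.10 in the remainder (61 of 344). The mean log2 CPM of 8mer genes minus that of genes without a match was 0.648, 0.662 and 0.651 in the Δ17,18 tail buds, against 0.537, 0.502 and 0.51 in the Δ18 tail buds. In heart it was 0.741, 0.765 and 0.763 in Δ17,18, against 0.647, 0.64 and 0.653 in Δ18. In the remainder it was 0.689, 0.696 and 0.705 in Δ17,18, against 0.595, 0.548 and 0.578 in Δ18. For miR-17 the groups did not overlap in any tissue, and every Δ17,18 library was the higher. In heart the same measure did not overlap for 8mer genes of miR-19 or miR-92 either. For miR-19 it was 0.786, 0.805 and 0.805 in Δ17,18 hearts, against 0.745, 0.761 and 0.761 in Δ18. For miR-92 it was 0.902, 0.918 and 0.913 in Δ17,18 hearts, against 0.884, 0.895 and 0.881 in Δ18. In tail bud and the remainder the groups overlapped for both. Genes with matches of the seed of miR-18a, which both genotypes lack, lay nearer to 0: the 8mer genes of miR-18 had medians of 0.01, 0.019 and -0.017 in tail bud, heart and the remainder, and those with no match of another family rose in 0 of 131, 0 of 128 and 1 of 133 cases.

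Genes with 2 matches were called more often than genes with 1. In tail bud 73 of 1771 genes with 1 match of 7 or 8 bases rose (4.12%), 29 of 264 with 2 matches (11.0%) and 4 of 46 with 3 or more (8.7%). In heart the shares were 2.22%, 4.89% and 10.6%, and in the remainder 6.79%, 13.1% and 10.4%. Read from the called genes, 106 of the 125 that rose in tail bud and have a 3′ untranslated region held an 8mer or 7mer-m8 (84.8%), against 14.8% of all genes tested. In heart this was 57 of 75 (76.0% against 14.9%), and in the remainder 163 of 208 (78.4% against 14.8%). Their regions were also longer, with a median of 2058 bases in tail bud, 2016 in heart and, for the remainder, 1870, against 1354, 1362 and 1352 over all tested genes. Of the genes that fell, 0 held an 8mer of miR-17 in any tissue. An 8mer or 7mer-m8 of miR-92 was in 1 of 8 of them in tail bud, 0 of 7 in heart and 10 of 31 in the remainder (32.3%, against 7.93% of all tested there), and one of miR-19 in 9 of 31 in the remainder (29.0%, against 13.7%). The regions of the genes that fell in the remainder had a median of 2302 bases, longer than the median of 1870 of those that rose.

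Over the 3 tissues, 34 of the 15688 genes tested in all of them rose in each (0.217%), and 1, Efcab7, fell in each (0.00637%). At least 1 tissue called 265 of them higher (1.69%) and 44 lower (0.28%). Called in at least 2 tissues in the same direction were 115 genes that rose (0.733%) and 5 that fell (0.0319%), and 0 genes were called in opposite directions. Of the 128 genes that rose in tail bud, 102 also rose in the remainder (79.7%) and 37 in heart (28.9%). Of the 74 that rose in heart and were tested in all tissues, 37 rose in tail bud (50.0%) and 44 in the remainder (59.5%). Whether called there or not, 124 of the 128 tail bud genes lay above 0 in heart and 127 in the remainder. Of all 15688 genes, 48.8% lay above 0 in heart and 49.5% in the remainder. Across all 15688 genes the log2 fold changes were only weakly related, with Pearson's r of 0.152 between tail bud and heart, 0.297 between tail bud and the remainder and 0.133 between heart and the remainder. These r values are across genes, which are not independent replicates, and tissues may share embryos. The 35 genes called in all tissues became 17 without Δ17,18 replicate 3 and 19, 13 and 20 without Δ18 replicate 1, 2 or 3 of each tissue. Of the 34 that rose, 18 of the 32 with a 3′ untranslated region held an 8mer of miR-17 (56.2%, against 4.52% of all genes tested).

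Mir17hg, the host transcript of the cluster, rose in every tissue. It was at 268, 263 and 248 CPM in Δ17,18 tail buds, against 127, 137 and 146 CPM in Δ18 (log2 fold change 0.92 ± 0.07 SE, adjusted p = 5.74e-09). In heart it was at 77.1, 75.7 and 74.6 CPM in Δ17,18, against 37.2, 36.8 and 37.5 in Δ18 (1.03 ± 0.08, adjusted p = 5.4e-08). Remainders held 312, 279 and 287 CPM in Δ17,18, against 151, 170 and 166 in Δ18 (0.85 ± 0.05, adjusted p = 5e-11). The groups were far apart in all tissues. The deletions lie within this transcript, so its count is not a measure of an unaltered gene.

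Znfx1, a zinc finger protein of the helicase superfamily with 2 of the 8mers shown above, rose in every tissue as well. It was at 59.4, 60.7 and 61.2 CPM in Δ17,18 tail buds, against 34.15, 34.9 and 31.6 CPM in Δ18 (0.85 ± 0.06, adjusted p = 1.95e-09). In heart it was at 48.3, 52.3 and 57.2 CPM in Δ17,18, against 34.5, 33.3 and 31.5 in Δ18 (0.67 ± 0.06, adjusted p = 1.88e-07). In the remainder it was at 58.4, 55.3 and 53.4 CPM in Δ17,18, against 36.8, 34.2 and 39.4 in Δ18 (0.60 ± 0.07, adjusted p = 2.27e-06). All Δ17,18 libraries of a tissue lay above all its Δ18 libraries. Hif1an, the asparaginyl hydroxylase that restrains the transcriptional activity of HIF-1, rose likewise. It was at 254, 252 and 258 CPM in Δ17,18 tail buds, against 176, 168 and 170 in Δ18 (0.57 ± 0.04, adjusted p = 1.95e-09). In heart it was at 190, 206 and 223 CPM in Δ17,18, against 149, 158 and 144 in Δ18 (0.46 ± 0.06), and in the remainder at 225, 227 and 233 in Δ17,18, against 168, 152 and 157 in Δ18 (0.52 ± 0.04). Again no Δ17,18 library reached down to a Δ18 library. The mRNA of Hif1a, the subunit it acts on, did not pass the test in any tissue, with log2 fold changes of 0.11, 0.12 and 0.14.

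Further shared genes act in transcription, membrane traffic and signalling. Polr3g, a subunit of RNA polymerase III, was at 61.7, 53.2 and 56.0 CPM in Δ17,18 tail buds, against 39.4, 40.6 and 39.7 in Δ18, and rose by log2 0.51 ± 0.06, with 0.44 ± 0.06 in heart and 0.47 ± 0.07 in the remainder. E2f1, a cell cycle transcription factor and long-known target of the cluster, was at 43.9, 44.5 and 45.4 CPM in Δ17,18 hearts, against 35.6, 33.8 and 33.5 in Δ18, with log2 fold changes of 0.38 ± 0.06, 0.38 ± 0.06 and 0.34 ± 0.05 in tail bud, heart and the remainder. The groups did not overlap for either gene in any tissue. Plekha3, a phosphoinositide-binding protein of the Golgi, was at 48.1, 46.4 and 49.3 CPM in Δ17,18 remainders, against 28.9, 32.8 and 33.3 in Δ18 (0.60 ± 0.06, adjusted p = 1.93e-07). It rose by 0.53 ± 0.06 in tail bud and 0.39 ± 0.07 in heart. Sema4b, a transmembrane semaphorin, was at 37.6, 36.7 and 36.8 CPM in Δ17,18 tail buds, against 25.7, 25.2 and 20.8 in Δ18 (0.63 ± 0.08, adjusted p = 5.27e-05), and rose by 0.47 in both other tissues. The heart calls of Plekha3 and Sema4b ended without Δ18 replicate 2 (adjusted p = 0.0563 and 0.0565). Ankrd13c, an ankyrin repeat protein, rose by 0.36 in tail bud, 0.33 in heart and 0.49 elsewhere.

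**Figure D2:**
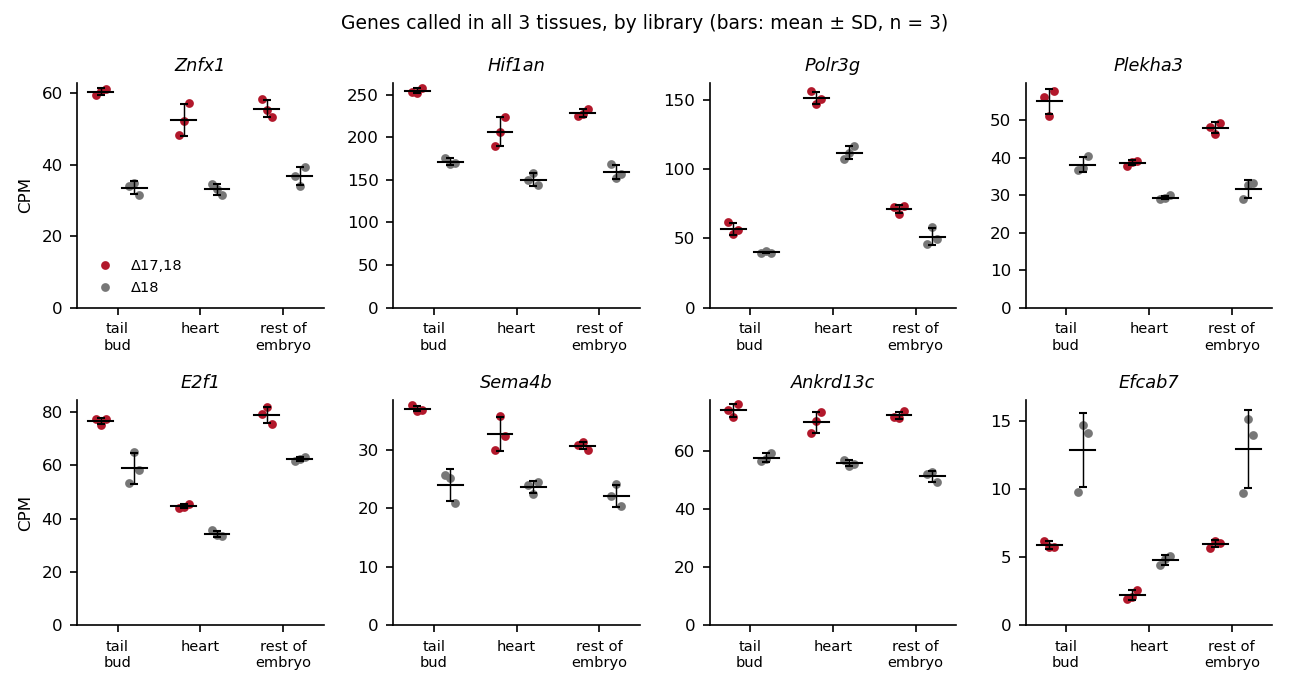
CPM (y axis) of 8 genes in each library, Δ17,18 left of Δ18 in each tissue, with mean ± SD of 3 libraries. The panels other than Efcab7 show Δ17,18 above Δ18 in all tissues, for example Znfx1 at 59.4 to 61.2 against 31.6 to 34.9 CPM in tail bud, and that of Efcab7 shows the opposite order.

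Of the other shared genes, Tgoln1, a trans-Golgi network protein, had log2 fold changes of 0.36 in tail bud, 0.46 in heart and 0.33 elsewhere, all past the threshold. It has a close paralog, Tgoln2, and reads could be split between them. Snx8, a sorting nexin, rose by 0.37, 0.42 and 0.47, the DNA polymerase Polq by 0.47, 0.48 and 0.25, and the membrane ubiquitin ligase March8 by 0.28, 0.28 and 0.31. The phospholipase Pla2g6 rose by 0.38, 0.50 and 0.45, Vash2 of the vasohibins by 0.27, 0.30 and 0.36, and Ginm1 by 0.54, 0.41 and 0.48. Fbxo25, an F-box protein, rose by 0.56, 0.40 and 0.40. The following 3 genes, named after their values were seen, also rose in all tissues: the circadian transcription factor Clock (0.41, 0.44 and 0.24), the mitochondrial fusion protein Mfn2 (0.36, 0.29 and 0.40) and Xiap, an inhibitor of caspases (0.24, 0.32 and 0.22). The heart calls of Ginm1, Vash2 and Fbxo25 ended without at least 1 single library, with adjusted p up to 0.15. Those of Tgoln1, Snx8, Polq and March8 held without any 1 library, as did those of Znfx1, Hif1an, Polr3g, Ankrd13c and E2f1, in all tissues.

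Efcab7, an EF-hand protein, was the 1 gene lower in all tissues. It was at 6.20, 5.775 and 5.71 CPM in Δ17,18 tail buds, against 9.80, 14.75 and 14.1 CPM in Δ18 (-1.12 ± 0.20, adjusted p = 0.00321). In heart it was at 1.92, 2.09 and 2.615 CPM in Δ17,18, against 4.41, 4.88 and 5.10 in Δ18 (-1.11 ± 0.22, adjusted p = 0.0111). In the remainder it was at 5.71, 6.21 and 6.015 CPM in Δ17,18, against 9.75, 15.2 and 14.0 in Δ18 (-1.11 ± 0.16, adjusted p = 7.595e-05). The groups did not overlap, and Δ18 replicate 1 was the lowest of its group in each tissue. In Δ17 and wild type the same gene was at 5.22 to 9.56 CPM and 4.63 to 5.67 CPM in tail bud, so that Δ18 was the highest of the 4 genotypes there. The heart call ended without Δ17,18 replicate 1 or Δ18 replicate 2 (highest adjusted p = 0.0745). Its 3′ untranslated region holds 0 matches of the 4 families.

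The largest changes in heart included genes of signalling and of the cytoskeleton. Clip4, of a family of microtubule-binding proteins, was at 64.2, 74.0 and 63.9 CPM in Δ17,18 hearts, against 37.2, 37.1 and 34.2 CPM in Δ18 (0.89 ± 0.09, adjusted p = 7.02e-06). The groups were well apart in heart, while tail bud (0.10 ± 0.12) and the remainder (0.08 ± 0.09) did not pass. Chrm2, the muscarinic receptor of cardiac muscle, was at 12.0, 17.4 and 11.7 CPM in Δ17,18 hearts, against 7.88, 5.72 and 5.695 in Δ18 (1.07 ± 0.23, adjusted p = 0.0455). Ficd, an enzyme that modifies the chaperone BiP, rose by 0.79 ± 0.14 in heart and by 0.80 ± 0.18 in tail bud. Map3k5, a stress-activated kinase, rose by 0.53 in heart at 74.7, 86.0 and 77.4 CPM in Δ17,18, against 49.3, 55.35 and 60.05 in Δ18. The heart calls of Chrm2 ended without any 1 library, those of Map3k5 without some (highest adjusted p = 0.0859) and that of Ficd without Δ18 replicate 2, while the tail bud call of Ficd ended without any 1 library (highest adjusted p = 0.192). Ptk2b, a kinase related to focal adhesion kinase, was at 33.9, 35.5 and 36.0 CPM in Δ17,18 hearts, against 47.0, 53.7 and 50.7 in Δ18 (-0.52, adjusted p = 0.00124). Uggt2, of a family of glycoprotein folding sensors in the endoplasmic reticulum, was at 23.8, 27.6 and 22.15 CPM in Δ17,18 hearts, against 38.8, 38.6 and 35.8 in Δ18 (-0.63 ± 0.09, adjusted p = 0.000412). Clip4, Ptk2b and Uggt2 passed without any 1 library. Ptk2b and Uggt2 lie on chromosome 14, which carries the cluster, and have 0 miR-17 matches (8mer or 7mer-m8).

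In tail bud, Slc40a1, the iron exporter ferroportin, was at 24.4, 35.7 and 26.3 CPM in Δ17,18, against 17.1, 17.2 and 15.7 in Δ18 (0.79 ± 0.12, adjusted p = 0.0005845). Rnase4, a secreted ribonuclease on chromosome 14, rose by 0.83, Mtln, a mitochondrial micropeptide, by 0.68 and Nagk, a sugar kinase, by 0.65. Each of these 3 calls ended without 1 of several libraries. Gpr180, on chromosome 14, was at 18.5, 17.6 and 18.7 CPM in Δ17,18 tail buds, against 26.6, 25.1 and 23.9 in Δ18 (-0.47 ± 0.08, adjusted p = 0.00238). Esd, an esterase also on chromosome 14, was at 35.4, 28.1 and 37.9 CPM in Δ17,18, against 48.8, 45.4 and 50.6 in Δ18 (-0.52, adjusted p = 0.00327). The groups did not overlap for Slc40a1, Gpr180 or Esd, and these calls held without any 1 library. In the remainder F3, the coagulation initiator tissue factor, was at 9.23, 8.88 and 10.5 CPM in Δ17,18, against 5.79, 5.27 and 6.06 in Δ18 (0.74 ± 0.12, adjusted p = 0.000273). Camk2n2, an inhibitor of CaM kinase II, rose by 0.70 there, the MAP kinase phosphatase Dusp2 by 0.62 and Sema7a, a membrane-anchored semaphorin, by 0.58. The clock gene Per2 and the interferon-induced Ifitm3 fell by 0.51 each, and the calls of Per2, Ifitm3, Dusp2 and Sema7a ended without 1 of several libraries.

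A list of 40 genes reported as targets of the miR-17 family, 39 of them tested in each tissue, rose in 6 cases in tail bud (15.4%, median log2 fold change 0.19), 3 in heart (7.69%, 0.14) and 11 in the remainder (28.2%, 0.14), with 0 falling. Of all genes tested, 0.753%, 0.46% and 1.24% rose in these tissues. The medians over all genes tested were -0.002, -0.0 and -0.0 in these tissues. E2f1 was the member that rose in all of them. Tgfbr2, the type II receptor of TGF-β, was at 26.1, 31.9 and 28.8 CPM in Δ17,18 remainders, against 20.1, 20.1 and 21.1 in Δ18 (0.50 ± 0.07, adjusted p = 5.4e-05). It also rose in tail bud (0.48 ± 0.10, adjusted p = 0.0184), where the call ended without 1 of several libraries, and was at 0.31 in heart (adjusted p = 0.189). Cdkn1a, the CDK inhibitor p21, was at 12.3, 13.7 and 14.7 CPM in Δ17,18 remainders, against 8.98, 10.1 and 10.0 in Δ18 (0.48 ± 0.11, adjusted p = 0.0112), a call that ended without 1 of several libraries (highest adjusted p = 0.105). It did not pass in tail bud (0.235) or heart (0.10). Bcl2l11, the pro-apoptotic BIM and a long-known target of the cluster, did not pass in any tissue. Bcl2l11 had log2 fold changes of 0.03, -0.08 and -0.08 in tail bud, heart and the remainder.

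Mylip, the ubiquitin ligase that degrades the LDL receptor, rose in tail bud and in the remainder. It was at 74.0, 84.1 and 69.8 CPM in Δ17,18 tail buds, against 53.3, 49.7 and 54.9 in Δ18 (0.53 ± 0.11, adjusted p = 0.0185). In the remainder it was at 19.1, 19.3 and 16.9 CPM in Δ17,18, against 14.0, 13.8 and 13.7 in Δ18 (0.42 ± 0.08, adjusted p = 0.00453), and in heart it did not pass (0.18, adjusted p = 0.666). The tail bud call ended without 1 of several libraries. The other 22 tested members of the list of LDL receptor family and cholesterol synthesis genes included 0 that were called. Of all 23 tested members, Mylip included, 21 lay below 0 in tail bud, with 19 in heart and 19 in the remainder. Their medians were -0.28, -0.18 and -0.09. Of all genes tested, 49.3%, 49.8% and 49.8% lay above 0. The summed CPM of the 23 members in heart was 1550, 1440 and 1430 in Δ17,18, against 1470, 1910 and 1530 in Δ18. In tail bud it was 2400, 2110 and 2280 in Δ17,18, against 2340, 2990 and 2470 in Δ18, and in the remainder 2110, 2280 and 2290 in Δ17,18, against 2200, 2820 and 2060 in Δ18. The sums of the groups overlapped in every tissue, and Δ18 replicate 2 was the highest library in each. In Δ17 against wild type the medians of the list were -0.007, 0.25 and 0.28.

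Lists of cell cycle, signalling and survival genes held 0 to 3 called members per tissue, all of them higher. In the remainder 20.0% of the G1 genes tested rose, 13.6% of the E2F and replication genes, 6.9% of the TGF-β and BMP genes, 6.67% of the BCL2 family and 18.8% of the p53 response genes, against 1.24% of all genes tested. In tail bud these shares were 0.0%, 9.09%, 6.9%, 0.0% and 6.25%, against 0.753%, and in heart 4.55% of the E2F and replication genes and 0.0% of the others rose, against 0.46%. Among 15 tested G1 cyclins, CDK inhibitors and pocket proteins, 0 were called in tail bud and heart and 3 rose in the remainder: Ccnd1 (cyclin D1), Ccne2 and Cdkn1a. Ccnd1 was at 389, 398 and 396 CPM in Δ17,18 remainders, against 339, 331 and 330 in Δ18 (0.24 ± 0.04, adjusted p = 0.00072), and passed without any 1 library, while Ccne2 did not. Of 22 E2F factors and replication genes, E2f1 and the helicase subunit Mcm3 rose in tail bud, E2f1 in heart, and E2f1, Mcm3 and E2f5 in the remainder. Mcm3 was at 567, 552 and 540 CPM in Δ17,18 remainders, against 437, 457.5 and 442 in Δ18 (0.31 ± 0.04, adjusted p = 3.68e-06). Of 29 TGF-β and BMP genes, Tgfbr2 and the activin receptor Acvr1b rose in tail bud and the remainder. The anti-apoptotic Mcl1 was the BCL2 family member that rose, by 0.21 in the remainder. Of 16 p53 response genes, Ccng1, an atypical cyclin, rose in tail bud (0.45 ± 0.10) and the remainder (0.44 ± 0.07), where Cdkn1a and the receptor Eda2r rose too. The calls of Mcm3, Ccng1 and Acvr1b in tail bud, and of E2f5, Acvr1b and Eda2r in the remainder, ended without 1 of several libraries, and that of Mcl1 ended without Δ17,18 replicate 3 (adjusted p = 0.0667).

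The median log2 fold changes of these lists lay between -0.013 and 0.104 in all 3 tissues. Lists of hypoxia and glycolysis, immediate early genes, Hox genes, tail bud and segmentation, cardiomyocytes, second heart field, endothelium, primitive erythroid cells, yolk sac endoderm, neural cells, somite derivatives and neural crest held 0 called genes in each tissue. Among these, the primitive erythroid list had a median of -0.94 in heart, the tissue in which its summed level also varied most between libraries.

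Most genes that rose also lay above 0 on loss of miR-17 and miR-20a with miR-18a present. In Δ17 against wild type, libraries of which none is shared with the comparison above, 257 genes rose in tail bud (1.51%), with 85 in heart (0.507%) and 250 in the remainder (1.43%), and 44 (0.259%), 8 (0.0478%) and 24 (0.137%) fell. Of the 128 genes that rose in Δ17,18 against Δ18 tail bud, 103 also rose in Δ17 (80.5% of these, and 40.1% of the 257). In heart 34 were shared (44.2% and 40.0%), and in the remainder 147 (67.7% and 58.8%). Of the genes that rose without miR-18a, 127 of 128 in tail bud, with 74 of 77 in heart and 207 of 217 in the remainder had the same sign with it. Of the genes that fell, 3 of 8 in tail bud, with 1 of 10 in heart and 3 of 32 in the remainder, also fell in Δ17, and 7, 8 and 27 of them had the same sign. Of all genes tested, 47.9%, 50.1% and 48.0% lay above 0 in Δ17 over wild type, and 52.1%, 49.8% and 52.0% below. Genes with an 8mer of miR-17 had medians of 0.13, 0.097 and 0.098 in Δ17,18 over Δ18 and of 0.16, 0.11 and 0.12 in Δ17 over wild type. Genes with an 8mer of miR-18 had medians of 0.01, 0.019 and -0.017 in Δ17,18 over Δ18, and of 0.086, 0.067 and 0.035 in Δ17 over wild type. Wild-type tail bud 3 stood apart in the mean log2 CPM of 8mer genes minus that of genes without a match. For miR-17 this was 0.398 there, against 0.498 and 0.508 in wild-type tail buds 1 and 2, and for miR-18 0.595 against 0.727 and 0.722. The part of this library in the tail bud medians of Δ17 over wild type was not tested.

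**Figure D3:**
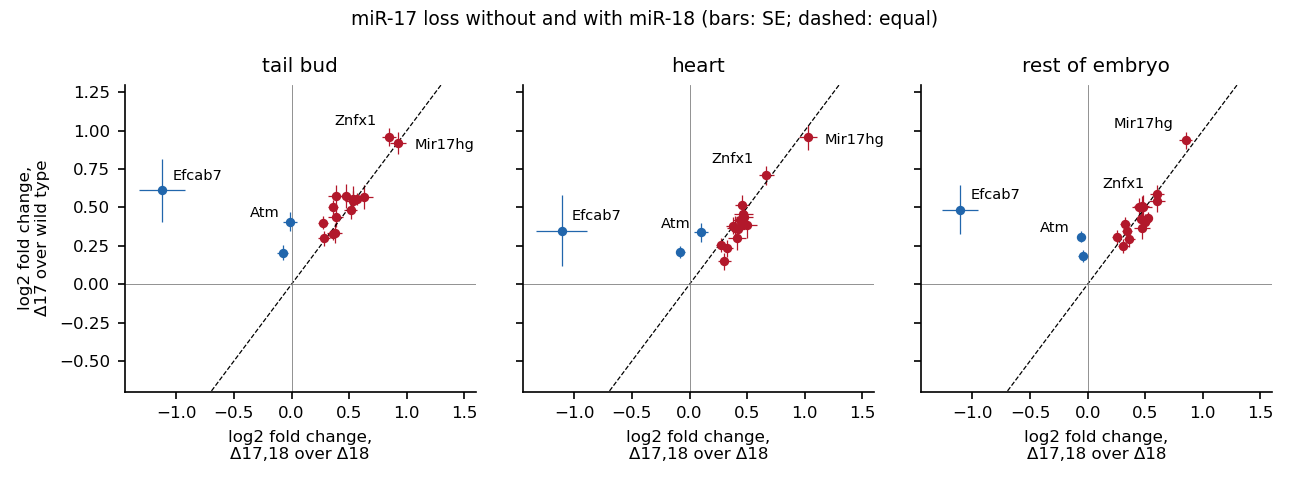
Log2 fold change ± SE of Δ17,18 over Δ18 (x axis) and of Δ17 over wild type (y axis) for named genes called in all tissues (red) and for Atm, Kpna6 and Efcab7 (blue), 1 panel per tissue, with the line of equality dashed. Most red points lie near the line, such as Znfx1 in tail bud at 0.85 and 0.96, while Efcab7 lies at -1.12 and 0.61.

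The difference between these effects was tested directly, as Δ17,18 minus Δ18 less Δ17 minus wild type. With edgeR, 0 of 17009 genes passed in tail bud (0.0%), with 0 of 16750 in heart (0.0%) and 2 of 17512 in the remainder (0.0114%). At an unadjusted p under 0.05 there were 588 (3.46%), 715 (4.27%) and 617 (3.52%) genes, and DESeq2 called 1, 0 and 3. The genes that passed were Atm and Efcab7. Atm, the kinase that signals DNA double-strand breaks, was at 236, 228.5 and 234 CPM in Δ17,18 remainders, 244, 242 and 243 in Δ18, 199.7, 211 and 205 in Δ17, and 159, 171 and 167 in wild type. Both genotypes without miR-18a were therefore high, and the gene rose in Δ17 over wild type (0.31 ± 0.04, adjusted p = 1.22e-06) but not in Δ17,18 over Δ18 (-0.06 ± 0.035, adjusted p = 0.61). Between the effects the difference was -0.37 ± 0.05 (adjusted p = 0.000416). In tail bud and heart it was -0.42 and -0.24 and did not pass (adjusted p = 0.596 and 1.0). Efcab7 gave a difference of -1.59 ± 0.22 in the remainder (adjusted p = 0.00122), -1.735 in tail bud (adjusted p = 0.0665) and -1.46 in heart (adjusted p = 0.315). The Efcab7 call ended when the fit held the 12 libraries compared alone (adjusted p = 0.368). Kpna6, a nuclear import receptor with 1 match of miR-18, had differences of -0.28, -0.29 and -0.22 that did not pass.

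**Figure D4:**
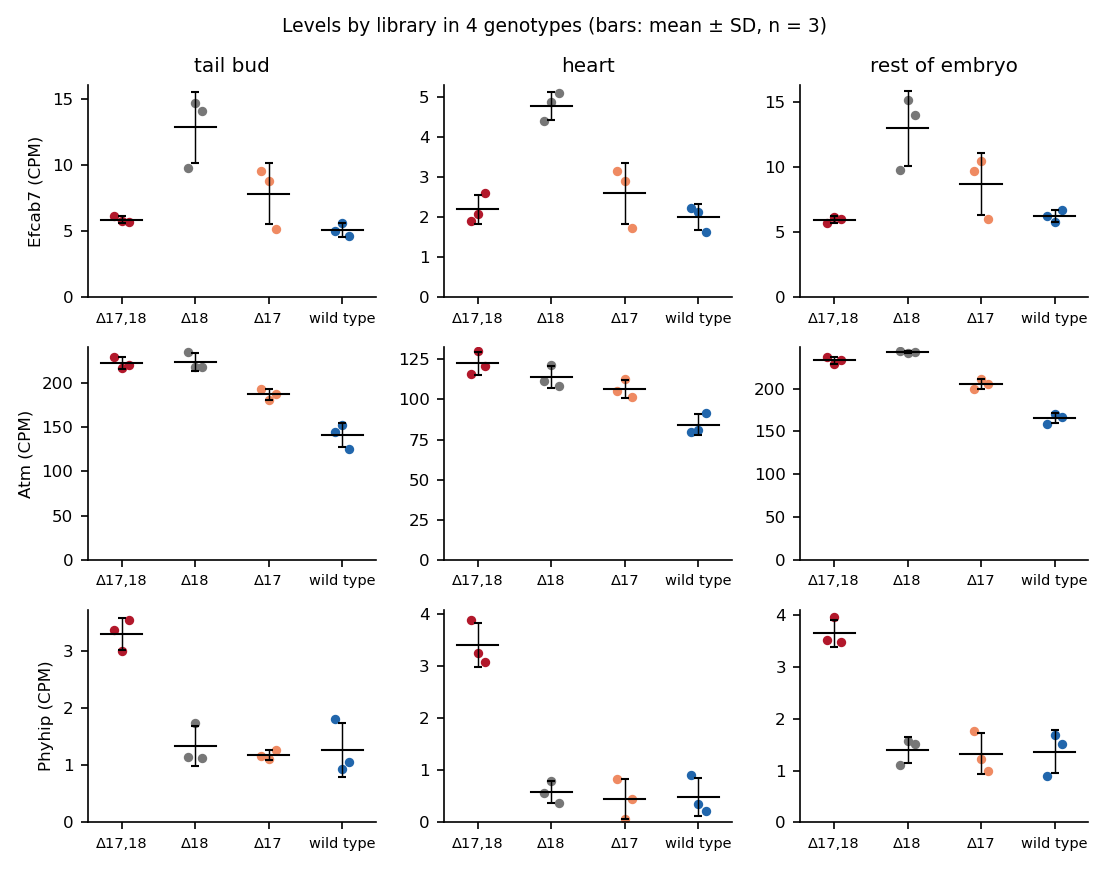
CPM (y axis) of Efcab7, Atm and Phyhip in each library of Δ17,18, Δ18, Δ17 and wild type (x axis) in the 3 tissues. Efcab7 is highest in Δ18, Atm is high in both genotypes without miR-18a, and Phyhip is high in Δ17,18.

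A test of whether the effect of miR-17 and miR-20a loss varied with tissue, over the 18 libraries, passed for 7 of 17592 genes (0.0398%, with 754 or 4.29% at an unadjusted p under 0.05), and for 12 when replicates were treated as blocks across tissues, of which 5 were shared. Hoxd3 and Gli1 did not pass with these blocks (adjusted p = 0.0699 each). For Clip4 the log2 fold changes were 0.10 in tail bud, with 0.89 in heart and 0.08 in the remainder (adjusted p = 0.0132), and for Uggt2 they were -0.21, -0.64 and -0.09 (adjusted p = 0.0364). The same heart differences were seen in Δ17 against wild type, where Clip4 rose by 0.80 and Uggt2 fell by 0.68. Uggt2 lies on chromosome 14, which carries the cluster, and has 0 miR-17 matches (8mer or 7mer-m8). The part of this location in its difference was not tested. The other 5 genes, Tmprss2, Gli1, Hoxb1, Hoxb9 and Hoxd3, were higher in Δ17,18 than in Δ18 hearts, where they are scarce, and differed little elsewhere. Tmprss2, a membrane serine protease, was at 1.43, 1.51 and 1.08 CPM in Δ17,18 hearts, against 0.327, 0.355 and 0.271 in Δ18, and Gli1, a transcription factor of Hedgehog signalling, at 2.31, 2.81 and 3.02 CPM in Δ17,18, against 1.39, 1.51 and 1.3 in Δ18. In the tail buds of both genotypes Tmprss2 was at 28.0 to 35.0 CPM and Gli1 at 69.6 to 76.8 CPM. Their heart log2 fold changes were 0.94 to 2.03 in this joint model, and in the fit of heart alone Tmprss2 passed, though not without 1 of several libraries (highest adjusted p = 0.0977), and the other 4 did not. With single libraries left out the number of genes that passed ran from 0 to 10. All 7 calls ended without Δ18 heart replicate 3, among them that of Clip4 (adjusted p = 0.08). The call of Uggt2 ended when any 1 of 14 of the 18 libraries was left out (highest adjusted p = 0.207). Those of Tmprss2, Gli1 and Hoxb1 each ended for 6 of these single libraries, that of Hoxd3 for 5 and that of Hoxb9 for 7.

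**Figure D5:**
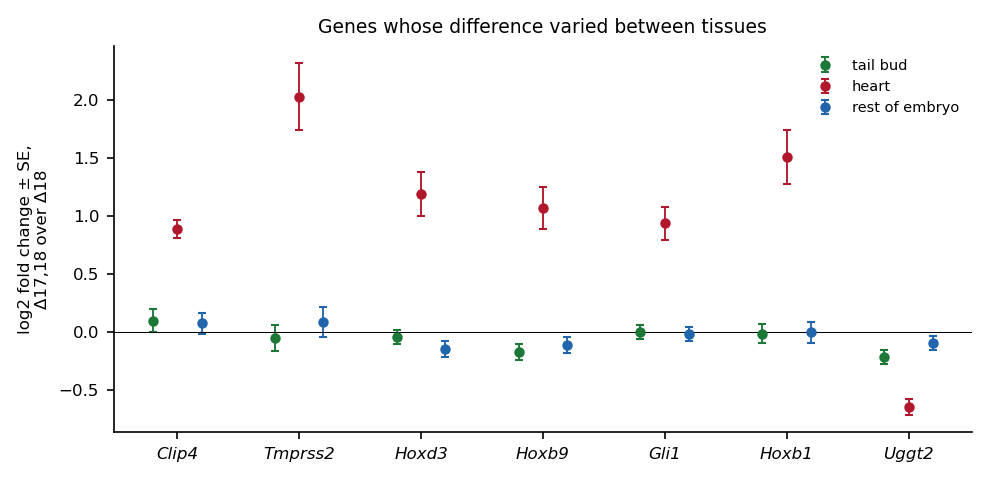
Log2 fold change ± SE of Δ17,18 over Δ18 (y axis) in tail bud, heart and rest of embryo for the 7 genes (x axis) whose change varied with tissue. The heart value stands apart in each, at 0.94 to 2.03 for Tmprss2, Gli1 and the 3 Hox genes, 0.89 for Clip4 and -0.64 for Uggt2.

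Nearly all Hox genes had positive log2 fold changes in heart without passing the test. These genes, which pattern the body axis, summed to 51.6, 51.4 and 37.8 CPM in Δ17,18 hearts, against 26.5, 18.2 and 13.7 CPM in Δ18 hearts. In Δ17 hearts they summed to 11.2, 21.1 and 36.5 CPM and in wild-type hearts to 38.4, 16.0 and 20.7 CPM. The Δ17,18 hearts thus stood above Δ18. They overlapped wild type only through the lowest Δ17,18 heart (37.8 CPM) and the highest wild-type heart (38.4 CPM). Tail buds of Δ17,18 and Δ18 were at 2690 to 2890 CPM. Of 31 Hox genes tested in heart, 30 lay above 0, with a median of 1.24, but 0 passed the adjusted threshold. In 23 of the 31 all Δ17,18 libraries lay above all Δ18 libraries. Over all genes tested in heart, the groups did not overlap, in either direction, in 13.3%. Markers of tail bud progenitors, 8 genes with none at 0, were summed without TMM factors, unlike the Hox genes. They were at 20.2, 18.4 and 14.3 CPM in Δ17,18 hearts, against 8.23, 12.2 and 9.05 in Δ18 hearts and 655 to 861 in tail buds. The part of this in the heart differences of the 5 genes was not tested.

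Chromosome 14, which carries the cluster, held called genes in each tissue. In tail bud 6 of its 549 tested genes rose (1.09%) and 2 fell (0.364%), with 0.753% and 0.047% of all genes tested. In heart 5 of its 546 tested genes rose (0.916%) and 2 fell (0.366%), with 0.46% and 0.0597% of all genes tested. In the remainder 10 of its 566 tested genes rose (1.77%) and 5 fell (0.883%), with 1.24% and 0.183% over all chromosomes. Phyhip, which encodes a protein that binds phytanoyl-CoA hydroxylase and was named after its values were seen, was at 3.36, 2.99 and 3.54 CPM in Δ17,18 tail buds, against 1.14, 1.74 and 1.12 CPM in Δ18 (1.31 ± 0.26, adjusted p = 0.00911). In heart it was at 3.89, 3.24 and 3.08 CPM in Δ17,18, against 0.572, 0.798 and 0.38 in Δ18 (2.52 ± 0.40, adjusted p = 0.00124). Remainders held 3.52, 3.96 and 3.48 CPM in Δ17,18, against 1.11, 1.57 and 1.51 in Δ18 (1.4 ± 0.23, adjusted p = 0.000322). The groups did not overlap in any tissue. In Δ17 over wild type it had log2 fold changes of -0.11, -0.06 and -0.09, and the difference of the effects did not pass (adjusted p = 0.988, 0.794 and 0.382). Gpr180 was lower in both settings, with a log2 fold change of -0.63 in Δ17 over wild-type tail bud (adjusted p = 3.3e-05). Gpc5 and Gpc6, the glypican genes next to the cluster, did not pass in any tissue in which they were tested.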

How the data were processed

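The authors deposited 1 table of raw read counts per gene, with 37620 Ensembl genes and 71 libraries, in whole numbers and not normalised. Per the submitters' processing notes, the authors used mm9 and NCBIM37 with featureCounts (Subread 1.4.2), SAMtools 0.1.14 and STAR 2.3.0. The annotation release, strand setting and handling of multi-mapping reads are not given in the sources used here, which leaves reads of near-identical, antisense or overlapping genes uncertain. Symbols and 3′ untranslated regions came from GENCODE M21 (GRCm38) by gene ID, which matched 32897 genes.

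Each tissue was fitted with all 8 genotypes (24 libraries of tail bud, 24 of heart, 23 of the remainder) in edgeR 4.0.16 (R 4.3.3, limma 3.58.1): low counts were filtered with filterByExpr, libraries scaled by TMM, quasi-likelihood fits made robust, and p-values adjusted over all genes after Benjamini-Hochberg (threshold 0.05). CPM, counts scaled per library size with TMM factors, was calculated from the deposited counts. The sums of cell type markers were scaled to the library total without these factors. SE is the size of the log2 fold change divided by the root of its F value. The tissue test was an F test with 2 degrees of freedom over the 18 libraries. DESeq2 1.42.0, RLE size factors, other filters, fewer libraries, leaving out each library and a replicate block were alternatives. Counts were also simulated with the same spread for every gene, and only well-expressed genes were changed. Of 100 genes changed there by log2 0.5, 92 were recovered in tail bud (16852 genes), 87 in heart (16512) and 92 in the remainder (17379). Unchanged genes were called in 7, 7 and 13 cases. These settings leave out gene-specific spread and deviating libraries, so recovery in the real data was not tested. Replicate pairs all exceeded the noise of counting (chi-square per degree of freedom at least 2.517).

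Same-numbered libraries of a genotype deviated together across tissues (r 0.185 to 0.794), so the tissue test was repeated with that pairing. Summed CPM of 5 sex-linked markers was 222 to 286 in Δ18 replicate 1 and Δ17,18 replicate 2 in every tissue. It was 1258 to 2561 in the other libraries of these genotypes. Sex was not in the model, and leaving out a library can change its balance between groups. Same numbers did not pair genotypes (r -0.672 to 0.259).

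Named were Mir17hg, Bcl2l11, Gpc5, Gpc6, Cdkn1a, Mylip, Tgfbr2 and others always, up to 15 genes called in all tissues, up to 10 per direction and tissue with the largest change (mean log2 CPM of at least 2, groups not overlapping), up to 4 departures per tissue, 6 tissue differences and up to 4 called members per list; not all are described, and some are not reported here. The libraries, gene lists and rules were chosen with earlier results of these data known.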

Additional observations from a re-analysis of the deposited data

Results flagged for a closer look

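The difference of Δ17,18 from Δ18 varied between tissues in 7 genes by the test of that variation over the 18 libraries (edgeR's quasi-likelihood test, Benjamini-Hochberg adjusted p). The adjusted p was 0.0132 for Clip4 and 0.0364 for Uggt2, whose heart values differed in the same direction between Δ17 and wild type. It was 0.0273 for Tmprss2, 0.0273 for Hoxd3, 0.0273 for Hoxb9, 0.0273 for Gli1 and 0.0312 for Hoxb1, genes at low CPM in heart that were higher in all Δ17,18 hearts than in all Δ18 hearts. With replicates as blocks across tissues, Hoxd3 and Gli1 did not pass (adjusted p = 0.0699 each). The call of Uggt2, which lies on chromosome 14 like the cluster, ended when any 1 of 14 libraries was left out. All 7 calls ended without Δ18 heart replicate 3, and 6 of them ended in a fit of all 71 libraries. In 2 genes the effect of miR-17 and miR-20a loss in the remainder differed between embryos without and with miR-18a, by the test of that difference. The adjusted p was 0.000416 for Atm and 0.00122 for Efcab7.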

How the results depend on the processing

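Genes called in heart (87) numbered 149 with DESeq2, 53 with the 6 libraries alone and 592 without a filter on low counts. Those of the remainder (249) numbered 395 without that filter. Without 1 library the calls ran from 71 to 108 in tail bud, 24 to 90 in heart, 136 to 183 in the remainder and 13 to 27 for genes called in all tissues. The count for all tissues was 35, and 24 with the libraries compared alone. The difference between the effects without and with miR-18a passed for 1 gene in tail bud with DESeq2 and 0 to 1 without 1 library. In heart it passed for 188 genes without the filter and 0 to 1 without 1 library. In the remainder it passed for 1 gene with the 12 libraries alone, 73 without the filter, 3 with DESeq2 and 2 to 5 without 1 library. The median of 8mer genes minus that of no-match genes was 0.113 to 0.156, 0.083 to 0.121 and 0.092 to 0.116 in tail bud, heart and the remainder without 1 library, and 0.091 in heart without the filter. Tissue variation passed for 42 genes with DESeq2, 1 in a fit of all 71 libraries, 201 without the filter, 12 with the replicate block and 0 to 10 without 1 library. With the replicate number as a block between genotypes, which the numbers did not support, 134, 64 and 245 genes were called, 30 in all tissues, and the 8mer medians differed by 0.139, 0.11 and 0.10. Signs turned when 1 library was left out for 4 values, none of which had passed. They ran from -0.00781 (without Δ17,18 replicate 3) to 0.0403 for Bcl2l11 in tail bud and from -0.300 (without Δ17,18 replicate 2) to 0.53 for Gpc5 in tail bud. They ran from -0.100 (without Δ18 replicate 2) to 0.303 for Cdkn1a in heart. Gpc5 in the remainder ran from -0.334 to 0.177 (without Δ17,18 replicate 2), with 0.139 and 0.108 without Δ18 replicate 1 or 2. Of 122 named values past the threshold, 66 stayed past it without any 1 library and 63 under every alternative. The cause of these changes was not tested.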
